A study of Macaca mulatta with 16 samples.

Results

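Genes grouped under the heading of antimicrobial proteins and alarmins were followed in the lungs of fetal rhesus macaques after intraamniotic LPS, with and without maternal betamethasone. The 10 genes were chosen by name from the gene table, with earlier results of these data known: LCN2, LTF, SLPI, PI3, CHI3L1, S100A8, S100A9, S100A12, PGLYRP1 and VNN1. Shares of all genes given below beside counts of the 10 are therefore a description and no test of the set. All 10 had a row among the 22515 genes of the table, and all 10 were among the 19199 genes tested.

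Lung RNA was sequenced from 16 fetuses in 5 groups. In the LPS 16h group (n = 4, animals 026, 029, 035 and 038), 1 mg of LPS, the endotoxin of Gram-negative bacteria, was injected into the amniotic fluid 16 hours before delivery at 130 or 131 days of gestation. In the LPS 5d group (n = 3, animals 239, 240 and 242) the same dose was given 5 days before delivery at 131 to 134 days. In the LPS + Beta-Ac group (n = 3, animals 248, 249 and 255) the 1 mg of LPS was joined by intramuscular betamethasone-acetate to the mother at 0.125 mg/kg, with delivery 5 days later at 131 or 132 days. Preterm controls (n = 4, animals 092, 101, 113 and 209, delivered at 131 to 135 days) and term controls (n = 2, animals 200 and 201, delivered at 156 and 157 days) received no treatment. No animal that received betamethasone alone is analysed here, so the steroid was compared only on top of LPS. Values below are given in the order of these animal numbers.

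Antimicrobial proteins limit microbial growth at wet surfaces by several routes. They withhold metals from microbes, bind or break down the bacterial wall, and, as antiproteases, keep neutrophil enzymes from digesting the host's own tissue. Alarmins such as the S100 proteins are released from activated or damaged cells and alert receptors of innate immunity. Neutrophils store many of these proteins in granules, and airway and alveolar epithelium also secretes several of them, so whole lung RNA carries both sources.

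Library totals were 30596371 to 48052891 counts in the LPS 16h group and 20169363 to 28348816 in the other groups, so the earlier time point was also the more deeply sequenced. Levels are given as CPM, a gene's counts scaled to a common library total that was adjusted for the make-up of each library, and changes as log2 fold changes of the same quantity. A gene was called when its Benjamini-Hochberg adjusted p from limma was below 0.05 and its change was at least 2-fold. The 4 comparisons with preterm controls share those 4 animals, so they are not independent of each other. As defining lung transcripts, SFTPC and SFTPB, which encode surfactant proteins, were at or above 1797 and 2583 CPM in every animal. In the bulk tissue, fewer cells of a type and less RNA per cell cannot be told apart.

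At 16 hours all 10 genes were called higher than in preterm controls, where 8.3% of all genes tested were. The median of the 10 log2 fold changes was 5.32, beside -0.09 over all genes tested. At 5 days after LPS alone 4 of 10 were called higher (LCN2, CHI3L1, S100A9 and VNN1), beside 2.6% of all genes, with a median of 1.10. At 5 days after LPS + Beta-Ac 7 of 10 were called higher, beside 4.05% of all genes, with a median of 2.68. In term controls 3 of 10 (LCN2, S100A9 and VNN1) were called higher than in preterm controls, beside 1.11% of all genes, with a median of 1.29. No member was called lower in any of these comparisons. The 4 LPS 16h animals lay above all preterm controls for each of the 10, beside 17% of all genes. The call at 16 hours also held for all 10 with counts thinned to the smallest library.

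**Figure D1:**
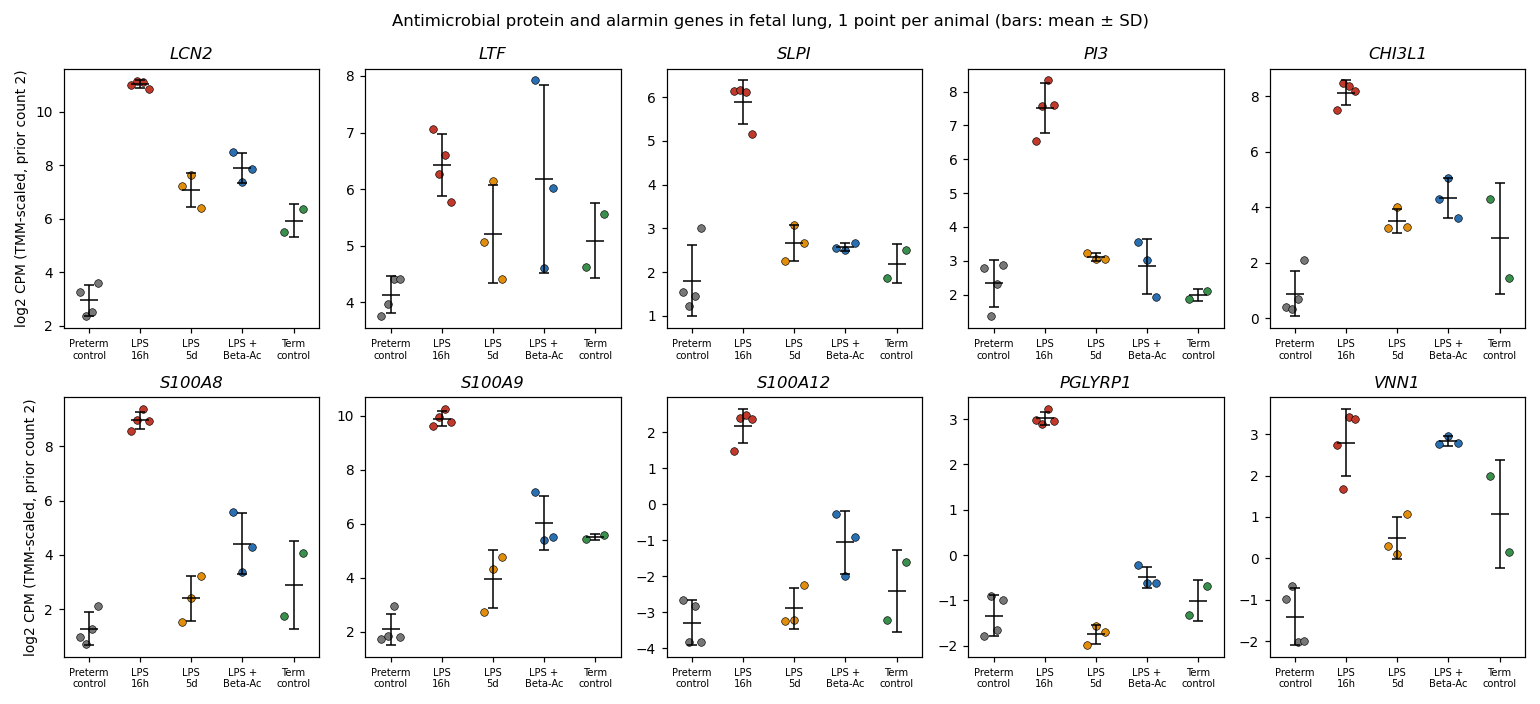
Level of each gene (log2 CPM, scaled between libraries, prior count 2) in every animal, by group, with the group mean and SD; the y axes differ between panels. The 4 LPS 16h animals lie above all preterm controls for each gene, and the 3 LPS + Beta-Ac animals reach the LPS 16h range for VNN1, while LTF is spread from 24.2 to 243 CPM in that group.

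**Figure D2:**
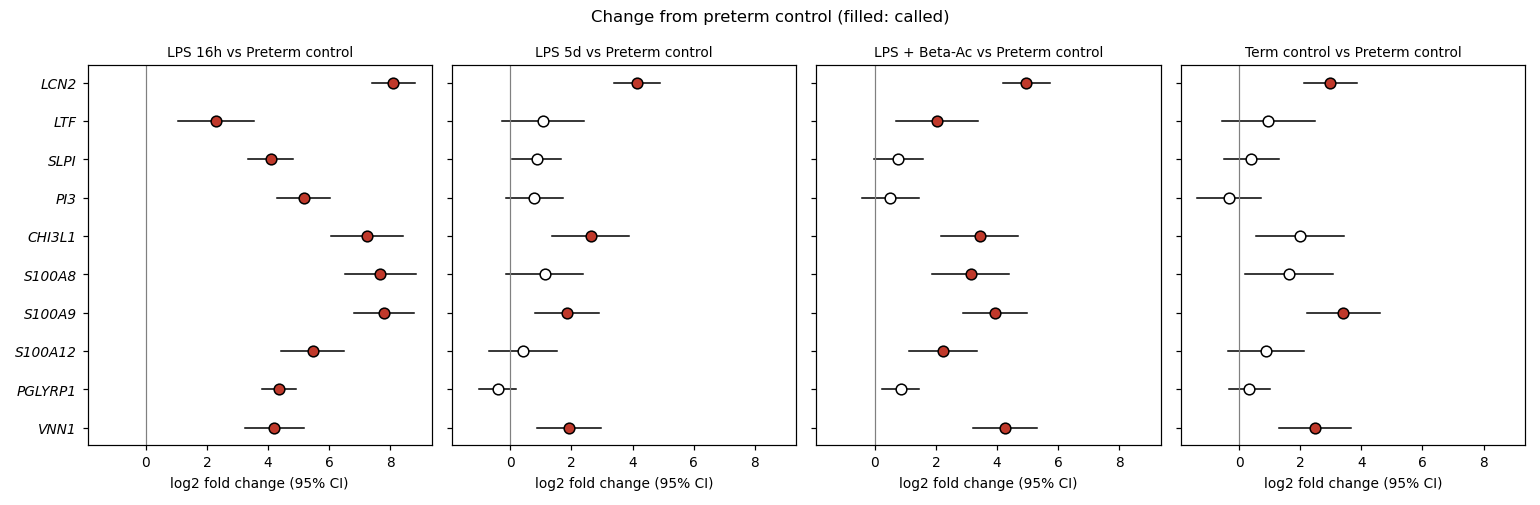
Log2 fold change of each gene from preterm control with its 95% confidence interval, for LPS 16h, LPS 5d, LPS + Beta-Ac and term control; filled points were called. The filled points number 10, 4, 7 and 3 from left to right.

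LCN2 and LTF take part in iron withholding. Lipocalin 2, the product of LCN2, captures the siderophores with which bacteria collect iron. LCN2 (ENSMMUG00000023801) measured 9.54, 5.04, 5.68 and 12.1 CPM in preterm controls and 2040, 2282, 2223 and 1848 CPM in LPS 16h animals. It measured 147, 200 and 83.4 CPM in LPS 5d, 357, 166 and 229 CPM in LPS + Beta-Ac, and 44.5 and 82.3 CPM in term controls. Every exposed or term animal was thus above every preterm control, and both 5-day groups lay between the term and 16-hour animals, although they overlapped each other. The log2 fold change from preterm control was 8.09 ± 0.33 (SE) at 16 hours (adjusted p = 4.93e-10), the largest of the 10. LCN2 was still 4.14 ± 0.36 higher at 5 days (adjusted p = 4.96e-05), 4.96 ± 0.36 higher after LPS + Beta-Ac (adjusted p = 3.06e-06) and 2.99 ± 0.40 higher at term (adjusted p = 0.00266). Ranked by log2 fold change from highest to lowest, it stood at place 18 at 16 hours, 11 at 5 days and 14 after LPS + Beta-Ac among all genes tested.

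LTF encodes lactoferrin, an iron-binding protein of secretions and of the specific granules of neutrophils. Its level (ENSMMUG00000014261) was 13.4, 15.5, 21.1 and 21.3 CPM in preterm controls and 134, 77.1, 97.2 and 54.5 CPM at 16 hours. Among the later groups LTF measured 33.6, 70.2 and 21.1 CPM in LPS 5d, 243, 24.2 and 64.6 CPM in LPS + Beta-Ac, and 24.5 and 46.9 CPM at term. The highest LTF value of the study was therefore in a 5-day animal, 248, while its group mate 249 was close to the controls. LTF had the smallest change of the 10 at 16 hours, 2.30 ± 0.58 (adjusted p = 0.00665). It was also the only member not called between LPS 16h and LPS 5d, at 1.22 ± 0.62 (adjusted p = 0.148). After LPS + Beta-Ac the change of 2.05 ± 0.62 was called (adjusted p = 0.0372), but without animal 248 it was 1.18 (adjusted p = 0.164). That call was also lost on leaving out animal 255, 092, 101 or 113, with adjusted p of 0.0742, 0.0867, 0.0724 and 0.0592. At 5 days of LPS alone (1.07, adjusted p = 0.293) and at term (0.95, adjusted p = 0.521) LTF was not called.

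SLPI and PI3 encode a pair of related antiproteases, secretory leukocyte protease inhibitor and elafin, which block neutrophil elastase and also have antimicrobial activity of their own. SLPI (ENSMMUG00000050091) measured 2.83, 2.26, 2.66 and 8.0 CPM in preterm controls and 70.0, 71.3, 69.7 and 35.4 CPM at 16 hours. The later groups held 4.68, 8.33 and 6.31 CPM for LPS 5d, 5.80, 5.61 and 6.28 CPM for LPS + Beta-Ac, and 3.60 and 5.66 CPM for term. By 5 days SLPI was within or just above the preterm range, whose upper end was set by animal 209. The change at 16 hours was 4.08 ± 0.35 (adjusted p = 3.56e-07). At 5 days it was 0.86 (adjusted p = 0.147) after LPS and 0.77 (adjusted p = 0.184) after LPS + Beta-Ac. Without animal 209 both became calls, at 1.26 (adjusted p = 0.00735) and 1.17 (adjusted p = 0.00946).

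PI3 (ENSMMUG00000063099) followed the same course with a wider spread at 16 hours. It measured 6.88, 2.50, 4.89 and 7.24 CPM in preterm controls and 92.0, 189, 322 and 195 CPM in LPS 16h animals. At 5 days it measured 9.36, 8.25 and 8.16 CPM after LPS and 11.6, 8.15 and 3.78 CPM after LPS + Beta-Ac, with 3.60 and 4.27 CPM at term. The 3 LPS 5d animals lay just above the preterm controls, and the LPS + Beta-Ac and term animals overlapped them. PI3 was 5.17 ± 0.41 higher at 16 hours (adjusted p = 1.97e-07). It was not called at 5 days (0.78, adjusted p = 0.273), after LPS + Beta-Ac (0.51, adjusted p = 0.482) or at term (-0.34, adjusted p = 0.783).

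S100A8 and S100A9 encode the subunits of calprotectin, which binds zinc and manganese and is abundant in the cytosol of neutrophils and monocytes. S100A8 (ENSMMUG00000044778) measured 1.92, 1.57, 2.34 and 4.26 CPM in preterm controls and 381, 498, 659 and 482 CPM at 16 hours. It measured 2.83, 5.30 and 9.25 CPM in LPS 5d, 48, 10.1 and 19.6 CPM in LPS + Beta-Ac, and 3.31 and 16.5 CPM at term. LPS 5d animals overlapped the preterm controls, whereas each LPS + Beta-Ac animal was above both groups. The log2 fold change was 7.68 ± 0.54 at 16 hours (adjusted p = 1.09e-07) and 3.14 ± 0.59 after LPS + Beta-Ac (adjusted p = 0.0024). After LPS alone it was 1.12 ± 0.59 at 5 days (adjusted p = 0.238), and at term 1.63 ± 0.67 (adjusted p = 0.198), neither of them called.

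S100A9 (ENSMMUG00000006868) was 3.22, 3.56, 7.73 and 3.42 CPM in preterm controls and 776, 984, 1204 and 868 CPM at 16 hours. In LPS 5d it was 6.57, 20.1 and 27.0 CPM, in LPS + Beta-Ac 144, 41.9 and 45.9 CPM, and in term controls 42.6 and 47.8 CPM. Term and LPS + Beta-Ac animals overlapped, and both stood above every LPS 5d animal, 1 of which lay within the preterm range. Against preterm controls S100A9 was 7.80 ± 0.45 higher at 16 hours (adjusted p = 1.53e-08), 1.85 ± 0.49 higher at 5 days (adjusted p = 0.0212), 3.94 ± 0.49 higher after LPS + Beta-Ac (adjusted p = 0.000145) and 3.41 ± 0.55 higher at term (adjusted p = 0.0068). The call at 5 days was lost without animal 092 (1.73, adjusted p = 0.0571), 240 (1.66, adjusted p = 0.0959) or 242 (1.45, adjusted p = 0.0982). At term the call was lost without animal 200 (3.49, adjusted p = 0.0563), which leaves 1 term animal.

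The ratio of S100A9 to S100A8 CPM within an animal, a description with no test, was narrow at 16 hours, from 1.80 to 2.04. It ranged from 2.32 to 3.80 in LPS 5d, 2.34 to 4.13 in LPS + Beta-Ac and 0.803 to 3.30 in preterm controls, and was 12.9 and 2.89 in term animals 200 and 201. Each animal of both 5-day groups therefore had a higher ratio than any LPS 16h animal. At the lower levels the ratio rests on few counts, 34 to 117 for S100A8 in preterm controls.

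S100A12 encodes the third neutrophil S100 protein, a ligand of the receptor for advanced glycation end products. Its transcript (ENSMMUG00000064796) was scarce, with 4 counts in all over the 4 preterm controls and 1, 1 and 3 counts in LPS 5d animals. At 16 hours it had 76 to 234 counts, or 2.70, 5.15, 5.45 and 5.06 CPM. LPS + Beta-Ac animals had 20, 5 and 12 counts (0.753, 0.181 and 0.462 CPM), and term animals had 1 and 8. Only 6 animals reached the low-count minimum of 0.371 CPM, the 4 LPS 16h animals and 2 of the LPS + Beta-Ac animals. S100A12 was called at 16 hours (5.46 ± 0.48, adjusted p = 4.40e-07) and after LPS + Beta-Ac (2.23 ± 0.52, adjusted p = 0.00809). These values depend on the prior count: with a smaller one of 0.5 they were 6.76 and 3.35. Without animal 248 the second was 1.84 and no longer called (adjusted p = 0.0527).

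PGLYRP1 encodes a peptidoglycan recognition protein of neutrophil granules, which binds the bacterial cell wall. PGLYRP1 (ENSMMUG00000008742) measured 0.218, 0.462, 0.248 and 0.436 CPM in preterm controls and 7.82, 7.39, 9.23 and 7.71 CPM at 16 hours. It measured 0.181, 0.269 and 0.237 CPM in LPS 5d, 0.790, 0.579 and 0.578 CPM in LPS + Beta-Ac, and 0.331 and 0.549 CPM at term. The 16-hour animals were tightly grouped, the LPS 5d animals overlapped the preterm controls, and the LPS + Beta-Ac animals lay just above both. The lower levels rest on few counts, 5 to 7 per animal in LPS 5d and 15 to 21 in LPS + Beta-Ac. No LPS 5d animal reached the low-count minimum of 0.371 CPM. PGLYRP1 was 4.35 ± 0.26 higher at 16 hours (adjusted p = 7.43e-09). The values of -0.42 in LPS 5d (adjusted p = 0.368), 0.85 in LPS + Beta-Ac (adjusted p = 0.0502) and 0.33 at term (adjusted p = 0.639) were not called.

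CHI3L1 encodes a chitinase-like lectin without chitinase activity, made by macrophages, neutrophils and other cells of inflamed tissue. CHI3L1 (ENSMMUG00000008711) measured 1.26, 1.20, 1.56 and 4.22 CPM in preterm controls and 181, 359, 331 and 291 CPM at 16 hours. It measured 9.58, 16.2 and 9.63 CPM in LPS 5d, 19.8, 33.1 and 12.1 CPM in LPS + Beta-Ac, and 19.6 and 2.68 CPM at term. All LPS-exposed animals were above all preterm controls, and the 2 term animals differed widely. The change was 7.24 ± 0.55 at 16 hours (adjusted p = 1.94e-07), 2.63 ± 0.59 at 5 days (adjusted p = 0.00929) and 3.43 ± 0.59 after LPS + Beta-Ac (adjusted p = 0.00138). The 5-day call was lost without animal 240 (2.38, adjusted p = 0.0514). At term it was 1.99 (adjusted p = 0.117), and it was called without animal 201 (3.41, adjusted p = 0.0162) or without 209 (2.39, adjusted p = 0.0411).

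VNN1 encodes vanin 1, a pantetheinase of epithelial and myeloid cells that releases the antioxidant cysteamine. VNN1 (ENSMMUG00000015089) measured 0.436, 0.555, 0.177 and 0.182 CPM in preterm controls and 6.57, 3.12, 10.6 and 10.2 CPM at 16 hours. It measured 1.16, 0.998 and 2.04 CPM in LPS 5d, 6.66, 7.71 and 6.86 CPM in LPS + Beta-Ac, and 3.90 and 1.03 CPM at term. The LPS + Beta-Ac animals sat inside the 16-hour range and above every LPS 5d and term animal. The change from preterm control was 4.21 ± 0.46 at 16 hours (adjusted p = 4.24e-06) and 4.25 ± 0.49 after LPS + Beta-Ac (adjusted p = 5.96e-05). At 5 days of LPS alone it was 1.91 ± 0.49 (adjusted p = 0.0177), a call lost without animal 113 (1.71, adjusted p = 0.0542) or 242 (1.62, adjusted p = 0.0788). At term it was 2.48 ± 0.56 (adjusted p = 0.0251), a call lost without animal 200 (1.56, adjusted p = 0.273) or 113 (2.28, adjusted p = 0.0684).

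The direct comparison of the 2 times after LPS, which shares no animals between its groups, asks how much of the early level was left at 5 days. Of 10 members, 9 were called higher in LPS 16h than in LPS 5d, LTF being the exception, beside 8.02% of all genes tested. For the 9 the log2 difference ran from 2.30 ± 0.49 for VNN1 (adjusted p = 0.00199) to 6.56 ± 0.59 for S100A8 (adjusted p = 1.70e-06). In mean CPM, LPS 5d held between 1.15% and 2.85% of the LPS 16h level for S100A8, S100A12, S100A9 and PGLYRP1, with S100A12 at 0.813% without animal 242. The share was 4.06% for CHI3L1, 4.31% for PI3, 6.84% for LCN2 and 10.5% for SLPI, and higher for VNN1 (18.4%) and LTF (45.8%, or 30.1% without animal 240). The 4 members with the smallest shares are the calprotectin genes, S100A12 and PGLYRP1. These shares are of the whole level, with no preterm level taken off. Mean CPM in preterm controls, LPS 5d and LPS 16h was 3.94, 6.44 and 61.6 for SLPI and 17.8, 41.6 and 90.8 for LTF. For PGLYRP1 it was 0.341, 0.229 and 8.04, the LPS 5d mean being below that of preterm controls. SLPI, with a larger share than LCN2, was not called above preterm controls at 5 days, whereas LCN2 was.

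**Figure D3:**
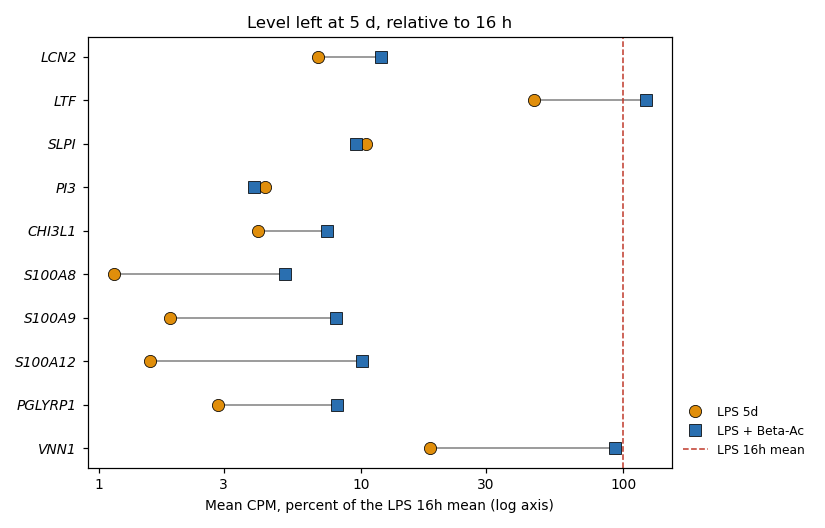
Mean CPM in LPS 5d (circles) and LPS + Beta-Ac (squares) as a percent of each gene's LPS 16h mean, on a log axis. The dashed line is the LPS 16h mean, and no preterm level is taken off. LPS 5d shares run from 1.15% for S100A8 to 45.8% for LTF, and the LPS + Beta-Ac share is 92.9% for VNN1 and 122% for LTF, the latter 48.9% without animal 248.

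Adding betamethasone to LPS was addressed by comparing LPS + Beta-Ac with LPS 5d. No member was called in either direction by limma, beside 0.104% of all genes called higher. Those were 20 genes, a number that became 0 on the compared groups alone, 3 by limma-voom, and between 2 (without animal 240) and 57 (without animal 255) with 1 animal left out. At an unadjusted p under 0.05 there were 6 of 10 members, each higher with betamethasone, beside 3.38% of all genes. Limma-voom gave 0 and 6, and over all alternatives the second number was 5 to 7. In 5 of 10 the groups did not overlap, with all LPS + Beta-Ac animals higher, beside 6.33% of all genes. These 5 were VNN1 (2.34, 95% confidence interval 1.22 to 3.47, adjusted p = 0.155), S100A9 (2.09, 0.96 to 3.21, adjusted p = 0.228), S100A8 (2.02, 0.67 to 3.37, adjusted p = 0.465), S100A12 (1.83, 0.64 to 3.02, adjusted p = 0.444) and PGLYRP1 (1.26, 0.62 to 1.90, adjusted p = 0.185). For S100A12 and PGLYRP1 the LPS 5d animals had only 1 to 3 and 5 to 7 counts, and none reached the low-count minimum of 0.371 CPM. Both genes passed the filter through other groups, so their lack of overlap is no support for a difference from LPS 5d. The interval for LCN2 was 0.01 to 1.64 around 0.82. Those of LTF (0.98, -0.46 to 2.41) and CHI3L1 (0.80, -0.55 to 2.15) were wide. The antiproteases lay nearest 0, SLPI at -0.09 (-0.94 to 0.77) and PI3 at -0.27 (-1.27 to 0.73), and only the PI3 interval reached past 2-fold, on the lower side.

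**Figure D4:**
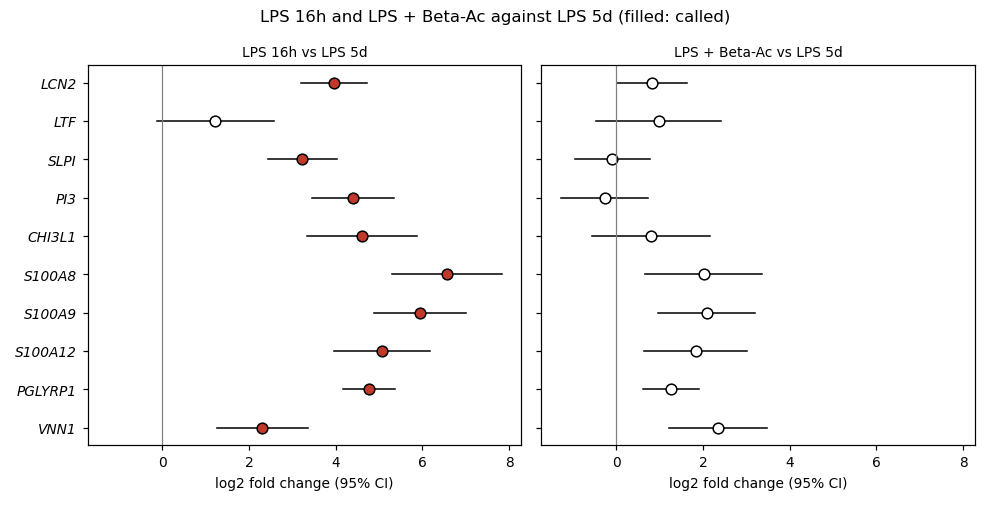
Log2 difference of each gene with its 95% confidence interval for LPS 16h against LPS 5d (left) and LPS + Beta-Ac against LPS 5d (right), on 1 scale; filled points were called. On the left 9 points are filled; on the right none is, and S100A8, S100A9, S100A12, PGLYRP1 and VNN1 lie between 1.26 and 2.34 and SLPI and PI3 near 0.

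Related host-defence genes outside the 10 were listed beside them. Both sets were chosen with earlier results of these data known, so their counts cannot test 1 set against the other. Of 35 other antimicrobial and alarmin genes listed, 31 had a row and 21 were tested. At 16 hours 10 of the 21 were called higher and 0 lower, with a median of 1.01. CAMP, the precursor of the peptide LL-37, rose by 5.56 (adjusted p = 2.78e-09) and BPI, a neutrophil protein that binds endotoxin, by 3.45 (adjusted p = 0.000761). The alarmin IL1A was at most 0.0924 CPM in preterm controls and 76.5 to 196 CPM at 16 hours (adjusted p = 2.83e-10). CCL20, a chemokine with antimicrobial activity, measured 0.213 to 4.76 CPM in preterm controls and 675 to 2411 CPM at 16 hours (adjusted p = 1.37e-06). Counts called higher were 6 of 21 at 5 days, 10 of 21 after LPS + Beta-Ac and 2 of 21 at term. The collectin SFTPA1 was called at 5 days (2.16, adjusted p = 0.0246), a call lost without animal 092, 101, 240 or 242 (adjusted p = 0.0630 to 0.121). It was also called after LPS + Beta-Ac (2.47, adjusted p = 0.0103), a call lost without animal 248 or 249 (adjusted p = 0.0551 and 0.0538).

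Receptors and carriers of these proteins were listed next. Of 13 tested, 4 were called higher and 1 lower at 16 hours, with a median of 0.05. The higher ones included TREM1, a receptor for PGLYRP1 complexes (7.72, adjusted p = 6.55e-09), and TLR4, a receptor of calprotectin and LPS (3.72, adjusted p = 1.14e-08). LRP2, an endocytic receptor that takes up lipocalin 2, was called lower (-1.99, adjusted p = 0.000449). Its level was low throughout, at 1.03 to 1.35 CPM in preterm controls and 0.133 to 0.604 CPM at 16 hours, around the low-count minimum of 0.371 CPM. TREM1 was also called at 5 days (3.56), after LPS + Beta-Ac (5.56) and at term (3.0), the last lost without animal 200 (2.55, adjusted p = 0.112). TLR4 was called higher in LPS + Beta-Ac than in LPS 5d (1.66, adjusted p = 0.0327), but that call was lost without animal 239 (adjusted p = 0.111), 240 (0.167), 248 (0.18) or 249 (0.123), by limma-voom (0.0823) and on the compared groups alone (0.0906).

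Of 17 cytokines, cytokine receptors and transcription factors listed as regulators of antimicrobial genes, 11 were called higher at 16 hours. They included IL6 (10.16, adjusted p = 1.50e-09), IL1B (adjusted p = 3.91e-09), CSF3, the granulocyte growth factor (8.14, adjusted p = 3.37e-09), and TNF (7.54, adjusted p = 1.41e-08). The fold changes of IL6, CSF3 and TNF depend on the prior count, since their preterm controls were at most 0.248, 0.142 and 0.218 CPM. At 5 days 2 of 17 were called, IL1B (2.71) and the epithelial factor ELF3 (1.36), and after LPS + Beta-Ac 3 of 17, IL1B (3.76), TNF (2.60) and IL6 (1.75). At term 3 of 17 were called, IL6 (2.70), CEBPD (1.33) and CEBPB (1.20). The IL6 call after LPS + Beta-Ac was lost in 9 of 16 alternatives. Among them were leaving out animal 092, 101, 209 or 248 (1.10 to 1.65), limma-voom (adjusted p = 0.252) and the compared groups alone (0.100). The TNF call in that comparison was lost by limma-voom (adjusted p = 0.121). Levels of TNF and IL6 were low in LPS + Beta-Ac, with means of 1.17 and 0.538 CPM. All 3 term calls were lost without animal 200 (adjusted p = 0.112 to 0.205), and that of IL6 also without 092, 101 or 201 (adjusted p = 0.0610 to 0.0830). Between LPS + Beta-Ac and LPS 5d 0 of 17 were called. Of 7 proteases tested, 2 were called at 16 hours, MMP8 and MMP9. MMP8 was at 40.2 to 186 CPM against at most 0.0709 CPM in preterm controls, and MMP9 at 171 to 254 CPM against 0.109 to 0.828 CPM. ELANE, the gene of the neutrophil elastase that SLPI and elafin block, was not called at 16 hours. It was at 0.163 to 0.533 CPM there and at 0.509 to 0.851 CPM in preterm controls. PRTN3 and CTSG were not called there either.

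Because neutrophils and monocytes carry many of the 10 transcripts, marker lists of the cells a lung sample can hold were measured beside them. Mature neutrophil markers summed to 26.0 to 54.2 CPM in preterm controls and 478 to 618 CPM at 16 hours. Their sums were 91.8 to 155 CPM in LPS 5d, 254 to 471 CPM in LPS + Beta-Ac and 111 to 194 CPM at term. MMP9 weighed heavily in them, with a mean of 190 CPM in a mean sum of 359 CPM in LPS + Beta-Ac. It was at 3.20 and 105 CPM in the 2 term animals. In the order of the comparisons with preterm control, 9, 6, 7 and 6 of the 10 genes were called higher. The gene not called at 16 hours was CXCR2. It was at 8.43 to 16.9 CPM there, 4.75 to 19.1 CPM in preterm controls and 18.9 to 36.9 CPM in LPS 5d. Of the 5-day calls, FPR2 was lost in 7 and CSF3R in 6 of 16 alternatives, and the others in fewer. Of the term calls, CSF3R was lost in 7 and FPR1 in 5 of 15, and the others in fewer. Between LPS + Beta-Ac and LPS 5d, 2 of the 10 were called higher. They were led by FCAR (2.82, adjusted p = 0.0024), a call lost by limma-voom (0.108) and on the compared groups alone (0.0697). The part of neutrophils in the members' changes was not tested.

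Genes of neutrophil precursor granules split. At 16 hours 4 of 10 were called higher: MMP8, OLFM4, CAMP and BPI. MPO, ELANE and CTSG each stayed at or below 0.720 CPM in every LPS 16h animal. Preterm controls held 0.139 to 1.24, 0.509 to 0.851 and 0.305 to 0.436 CPM of them, in that order. AZU1 was at 1.95 to 3.15 CPM and PRTN3 at 1.14 to 1.89 CPM at 16 hours, and neither was called. After LPS + Beta-Ac the 4 called were MPO (3.28, adjusted p = 0.0276), OLFM4, CTSG and CAMP. MPO ranged from 0.655 to 26.3 CPM in that group. Its call was lost without animal 248 (1.97, adjusted p = 0.142), 249, 092, 101 or 113 (adjusted p = 0.0625 to 0.0776), and that of OLFM4 without animal 092, 248 or 255 (adjusted p = 0.0544 to 0.0672). The list summed to 10.3 to 11.2 CPM in preterm controls, 179 to 404 CPM at 16 hours and 9.87 to 14.6 CPM in LPS 5d. It summed to 59.9, 25.5 and 20.3 CPM in LPS + Beta-Ac animals 248, 249 and 255. Animal 248 also had the highest LCN2, LTF, PI3, S100A8, S100A9, S100A12 and PGLYRP1 of its group. CHI3L1 and VNN1 were highest in animal 249 and SLPI in animal 255. In the same order of animals, mature neutrophil markers summed to 352, 471 and 254 CPM. Alveolar type 2 markers summed to 29566, 25600 and 17254 CPM. The part of neutrophil precursors in the values of animal 248 was not tested.

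Monocyte and macrophage markers summed to 272 to 367 CPM in preterm controls, 1387 to 1657 CPM at 16 hours, 406 to 430 CPM in LPS 5d, 621 to 929 CPM in LPS + Beta-Ac and 387 to 462 CPM at term. VCAN had a mean of 187 CPM in a mean sum of 317 CPM in preterm controls. At 16 hours VCAN and CD14 had means of 579 and 562 CPM in a mean sum of 1543 CPM. Of 11 genes, 9, 5, 10 and 1 were called higher against preterm controls. CD163, a scavenger receptor of macrophages, was the 1 called between LPS + Beta-Ac and LPS 5d (1.97, adjusted p = 0.0496), and 12 of 15 alternatives ended that call, among them leaving out animal 239, 240, 242, 248 or 249 (adjusted p = 0.131 to 0.251). MARCO was at 0 in all preterm controls and at 3.23 to 9.83 CPM at 16 hours. VNN1 and CHI3L1, which myeloid cells also make, were called higher in the same comparisons of LPS-exposed animals with preterm controls. So were LCN2 and S100A9. The part of monocytes and macrophages in these changes was not tested.

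Epithelial lists held genes called in both directions. Of 8 airway secretory genes tested, 2 were called higher at 16 hours, PIGR (4.19, adjusted p = 2.87e-06) and WFDC2 (2.68, adjusted p = 1.70e-05), and the summed level of the list was 100 to 643 CPM in preterm controls and 565 to 1022 CPM at 16 hours. Preterm control 209, at 643 CPM, made these groups overlap, the other 3 controls lying at 100 to 201 CPM. WFDC2 and PIGR had means of 364 and 199 CPM in the mean sum of 691 CPM at 16 hours. The other tested genes of this list were not called there. Of 8 alveolar type 2 genes 4 were called higher at 16 hours, led by LAMP3 (2.22) and ABCA3 (2.00), and of 6 alveolar type 1 genes 4 were called lower, led by CLIC5 (-1.93). Among 8 lung identity genes 1 was called higher (SFTPD, 1.01) and 1 lower (FOXF1, -1.05), both near the 2-fold limit, and of 5 erythroid genes 0 were called. SFTPD was under that limit without animal 026, 029, 092 or 101 (0.87 to 0.97), and FOXF1 without 092 (-0.98).

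**Figure D5:**
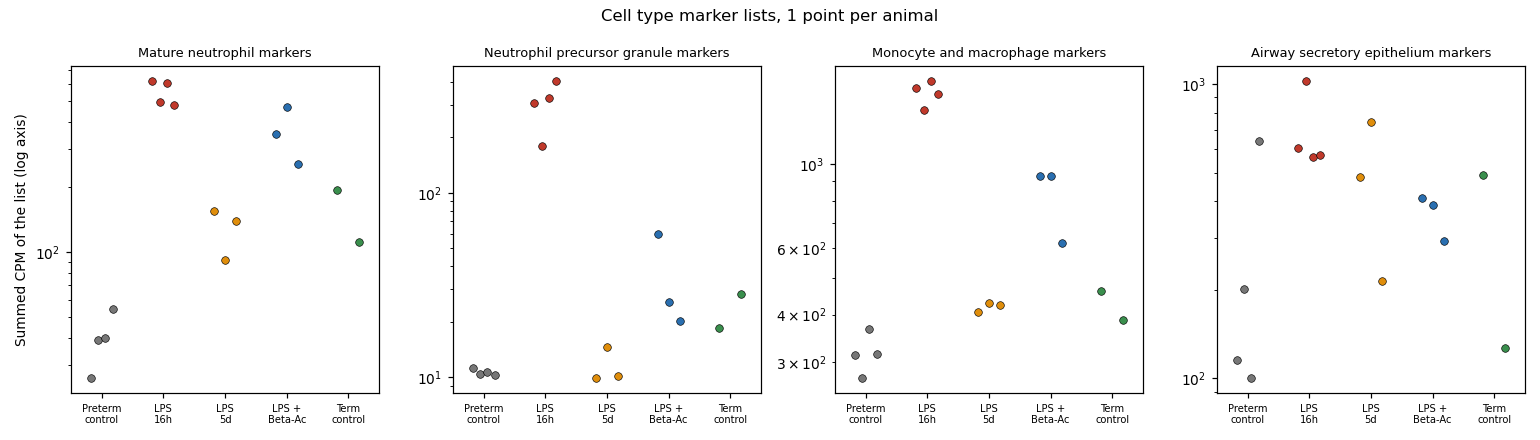
Summed CPM of 4 marker lists in every animal, by group, on log axes that differ between panels. Single abundant genes weigh heavily in some sums, as given in the text. Mature neutrophil markers reach 478 to 618 CPM at 16 hours and 254 to 471 CPM in LPS + Beta-Ac, above the 91.8 to 155 CPM of LPS 5d, while airway secretory markers overlap between preterm controls and LPS 16h through preterm control 209 (643 CPM).

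The genes whose log2 CPM ran most closely with a member over the 16 animals were found by Pearson's r, as a description that largely reflects the difference between LPS 16h and the other groups. For LCN2 the nearest was CFB, complement factor B, a product of epithelium and macrophages (r = 0.98). For S100A8 it was MS4A6E followed by CD177, a neutrophil surface protein (r = 0.99 and 0.98), and for S100A9 it was CAMP (r = 0.98). S100A12 ran closest with S100A8 (r = 0.98), PGLYRP1 with APOBEC3A (r = 0.99) and VNN1 with the myeloid receptor PILRA (r = 0.95). LTF had the lowest value of the 10, its nearest genes being MAB21L3 (r = 0.90) and ABCA3, the lipid transporter of alveolar type 2 cells (r = 0.87). SLPI ran closest with YBX3 (r = 0.98), PI3 with RPN1, a subunit of the oligosaccharyltransferase of the endoplasmic reticulum (r = 0.99), and CHI3L1 with SH3BP1 (r = 0.98).

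Some members are neighbours in the genome. In the RefSeq annotation of the rhesus assembly T2T-MMU8v2.0, used for gene order only because the counts were made on Mmul_10, S100A8, S100A12 and S100A9 follow each other, and PI3 and SLPI lie in the same cluster with SEMG2 between them. Of 29 other genes within 2 places of a member, 18 were tested. Of these, 6 were called higher at 16 hours, and 1, LRRC2 beside LTF, lower (-2.50). The higher ones included MYBPH (4.99) and ADORA1 (2.39) beside CHI3L1, VNN2 (2.23) beside VNN1, and SLC25A25 (2.23) and PTGES2 (1.21) beside LCN2. WFDC12, next to PI3, was at -0.72 and not called. Whether reads were assigned by strand is not given in the sources used here, so reads shared between overlapping neighbours could not be separated.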

How the data were processed

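RNA from left lung of 16 fetal rhesus macaques was poly(A)-selected and sequenced as 75 bp paired-end reads. Per the labels and methods, the authors quantified transcripts with kallisto against Mmul_10, summed them to genes, and tested them with DESeq2. The labels name Trizol for RNA extraction, the methods a column kit. The deposited table gives whole gene counts without normalization. These were recorded as another unit, since bare animal numbers head the columns, and no count model was run. Estimated counts of transcripts that share sequence, as paralogs do, are uncertain.

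Groups were taken from each animal's labelled treatment, interval and gestational age. Symbols for 17256 of 22515 gene IDs came from a gene name table. Animals of a group differed by more than sampling noise (chi-square per degree of freedom at least 32.5 over 19 pairs). In R 4.3.3, log2 CPM were scaled by trimmed mean of M-values (30% and 5% trims, prior count 2). Genes with at least 0.371 CPM in 2 animals and 15 counts in all were kept. Limma 3.58.1 (trend, robust) fitted 1 mean per group over all 16 animals, and tests were two-sided. The script was tested on simulated data. Tests were called at adjusted p below 0.05 over all 19199 genes tested and a change of at least 2-fold. CPM in the text carry the same scaling factors, the filter used unscaled CPM, and intervals are at 95%. No batch or sex is labelled per animal.

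The members and lists were chosen with earlier results of these data known. All 10 members are named. Of each list the text names up to 4 called genes per comparison with the largest changes; for each member, 1 or both of the 2 genes with the highest Pearson r. The levels of MPO, ELANE, CTSG, AZU1 and PRTN3 at 16 hours, of SFTPC and SFTPB, WFDC12 and the called neighbours were named after their values were seen. So were the single genes given beside the marker sums. Alternatives covered scaling, filter, prior count, limma-voom, the compared groups alone, each animal left out, animals 209 and 200 left out together and, added after seeing the data, the LPS 16h animals left out and counts thinned to the smallest library. Values of some listed genes are not reported here.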

Additional observations from a re-analysis of the deposited data

Results flagged for a closer look

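In groups of 4, a single animal stood apart from the other 3 by Dixon's test in 3 cases of 20 tested, a test that chance passes in about 1 of 20 groups. SLPI in LPS 16h animal 038 was 5.15 log2 CPM, with the other 3 at 6.12 to 6.16. S100A9 in preterm control animal 113 was 2.96, with the others at 1.72 to 1.86. S100A12 in LPS 16h animal 026 was 1.47, with the others at 2.36 to 2.47. None of these 3 animals is the same, and leaving out each kept the 16-hour call of its gene.

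The response to LPS differed between 16 hours and 5 days for 9 of 10 members, by limma's direct contrast of LPS 16h with LPS 5d. The log2 differences were 6.56 for S100A8, 5.94 for S100A9, 5.06 for S100A12, 4.77 for PGLYRP1, 4.61 for CHI3L1, 4.39 for PI3, 3.95 for LCN2, 3.23 for SLPI and 2.30 for VNN1, each higher at 16 hours.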

How the results depend on the processing

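The counts of members called kept to 10 at 16 hours, 9 between LPS 16h and LPS 5d, and 0 between LPS + Beta-Ac and LPS 5d under every alternative run. After LPS + Beta-Ac the count against preterm control ranged from 5 to 8. At 5 days it was 2 with limma-voom, and from 2 to 5 with 1 animal left out. At term it was 1 without animals 209 and 200 together, and from 1 to 4 with 1 animal left out. Leaving out 1 animal kept 389 of the members' individual changes on their side of the threshold, ended 15 calls, added 4 and turned 2 uncalled directions: SLPI between LPS + Beta-Ac and LPS 5d ranged from -0.30 to 0.11, the latter without animal 240, and PI3 from -0.62 to 0.18, the latter without animal 255. The other settings kept 507, ended 11 and added 2, and the cause was not tested. LTF after LPS + Beta-Ac was not called by limma-voom (adjusted p = 0.0611), on the compared groups alone (0.115) or without the LPS 16h animals (0.0615). VNN1 and S100A9 at 5 days (0.136 and 0.0738) and VNN1 at term (0.110) were not called by limma-voom. Of 1188 counts over the other lists, 1088 stayed within 1.5 times. Scaling by total counts set the median of all genes at -0.29, from -0.09, between LPS 16h and preterm control and at -0.22, from -0.04, between LPS 16h and LPS 5d. The calls of members at 16 hours held under it.

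No paired analysis was possible because the groups have no animal number in common. Groups held 2 to 4 animals, fewest at term. LPS 16h libraries were deeper, and with counts thinned to the smallest library the number called there was again 10.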
